A study of Mus musculus with 12 samples.

Results

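The genes described here are 55 genes of nucleolar ribosome biogenesis, chosen by name: every row of the count table whose gene symbol is in a fixed list of proteins that transcribe ribosomal DNA, modify and cleave the precursor ribosomal RNA, or assemble the ribosomal subunits. The list was drawn up with earlier results of these data known. All 55 were found among the 22561 genes of the table, and all 55 passed the filter on low counts that left 9431 genes for testing. By role, 5 belong to RNA polymerase I transcription, 4 are multifunctional nucleolar proteins, 8 form or assemble small nucleolar ribonucleoproteins (snoRNPs), 14 belong to the small subunit processome, 7 act in later small subunit maturation and 17 in large subunit assembly.

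Ribosomes are built in the nucleolus. RNA polymerase I copies the repeated ribosomal DNA into a long precursor, snoRNPs guided by small RNAs methylate and pseudouridylate it, and the small subunit processome folds and cuts the part that becomes the small subunit, while a separate set of factors assembles the large subunit. Resting B lymphocytes are small cells with few ribosomes, and activated B cells enlarge their nucleoli before they divide or secrete antibody.

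The study stimulated follicular (FO) B cells, the main recirculating B cells of the spleen, sorted from 10-week-old wild-type C57BL6 mice as mature CD23+ cells with intermediate CD21. The 4 groups of 3 samples each were unstimulated cells, cells given IFNα (a type I interferon) for 12 h, cells given CpG (an oligodeoxynucleotide sensed by the receptor TLR9) for 12 h, and cells given CpG plus IFNα for 12 h. No group carried a transgene or a deletion. RNA was measured by BRB-seq, a pooled 3′-end method in which each molecule carries a unique molecular identifier (UMI) and the counts do not scale with transcript length. The sources used here do not state whether the unstimulated cells were also kept in culture for 12 h, so stimulation and culture cannot be told apart against that group. The labels do not say that the replicates of a group came from separate mice, and the p-values then measure only the spread between these samples, which may be technical.

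Total UMI counts per sample ran from 922450 to 1103064 in the unstimulated group, from 1067324 to 1689570 with IFNα, from 1393018 to 1985810 with CpG and from 1884673 to 2923865 with CpG plus IFNα, so that depth rose along with the stimuli. All 7 B cell markers examined were detected in every group, but their summed level was lower with CpG: 7098 to 8259.7 CPM (counts scaled to a common library size) in unstimulated cells, 6022 to 6932 with IFNα, 1084 to 1274 with CpG and 948 to 1022 with both. The markers did not move alike: Fcer2a, which encodes CD23, went from 1109 to 1454 CPM unstimulated to 196 to 303 with IFNα and 17.8 to 28.2 with CpG, and Pax5 from 657 to 718 CPM to 591 to 721 and 395 to 490.2. The 3 T cell markers in the table summed to at most 1.82 CPM, the 2 natural killer cell markers to at most 1.23 CPM and the 6 myeloid markers to at most 24.6 CPM in any sample. Erythroid markers summed to 57.4 to 345 CPM in unstimulated samples, 15.3 to 336 with IFNα, 4.99 to 60.8 with CpG and 5.65 to 72.0 with both. The part of these marker shifts in the results that follow was not tested. In bulk RNA, fewer cells of a type and less RNA per cell cannot be told apart, and the values are shares of each library, not amounts per cell.

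Promoter windows running from 250 bases before to 50 bases after the transcription start were given by RefSeq (GRCm38.p6) for 48 of the 55 genes, in 57 windows. The E-box CACGTG, the same letters on both strands and the canonical binding sequence of Myc and its relatives, stood in 12 of these windows (21.1%), in 12 genes, against 7.15% of all 32851 windows and 11% of the 9178 windows of tested genes. The 13 matches fell at or after the start in 8 cases and before it in 5. The 5 sites before the start are shown because they lie in promoter sequence that is not transcribed from that start, each 5′ to 3′ along the gene with the E-box in capitals.
Imp4, chr1:34439698-34439723, plus strand, motif beginning 121 bases before the start: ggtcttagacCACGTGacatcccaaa
Nop2, chr6:125131813-125131838, plus strand, motif beginning 60 bases before the start: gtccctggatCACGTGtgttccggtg
Utp18, chr11:93885771-93885796, minus strand, motif beginning 20 bases before the start: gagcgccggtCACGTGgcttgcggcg
Rrn3, chr16:13780474-13780499, plus strand, motif beginning 215 bases before the start: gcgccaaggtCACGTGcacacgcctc
Rrn3, chr16:13780641-13780666, plus strand, motif beginning 48 bases before the start: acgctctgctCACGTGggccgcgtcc

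Rrn3, which makes RNA polymerase I competent to initiate, carried 2 of the 5 sites. The variant E-box CGCGTG was in 28.1% of the 57 windows, against 9.27% of all windows and 18.3% of those of tested genes, and CCGGAAG, the core of ETS factor sites, in 35.1% against 8.86% and 20.5%. GGCGGG, the GC box, was in 63.2% of the windows, 35.3% of all windows and 63.1% of those of tested genes, and TATAAA in 3.51% against 13.6% and 6.71%. ATTGG, the reverse complement of the CCAAT box, was in 31.6% against 37.4% and 37.9%. Each motif was searched on both strands, and matches of different motifs that overlapped were each counted. A match describes letters in the window and not bound factor.

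Together the 55 genes took 0.512%, 0.511% and 0.607% of all UMI counts in the 3 unstimulated samples, with a mean of 0.543% ± 0.0553 (SD, n = 3). With IFNα the shares were 0.660%, 0.544% and 0.550% (mean 0.584% ± 0.0652, SD, n = 3), with CpG 2.85%, 2.90% and 2.94% (mean 2.90% ± 0.0445, SD, n = 3) and with CpG plus IFNα 3.45%, 3.45% and 2.98% (mean 3.29% ± 0.267, SD, n = 3). Every CpG-treated sample was above every sample without CpG, and the IFNα samples overlapped the unstimulated ones. The mean share was 5.33 times the unstimulated mean with CpG, 6.06 times with CpG plus IFNα and 1.08 times with IFNα. In library-normalised CPM, the third CpG plus IFNα sample (29148) lay inside the range of the CpG samples (28776 to 29161), and the other two reached up to 35438.

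**Figure D1:**
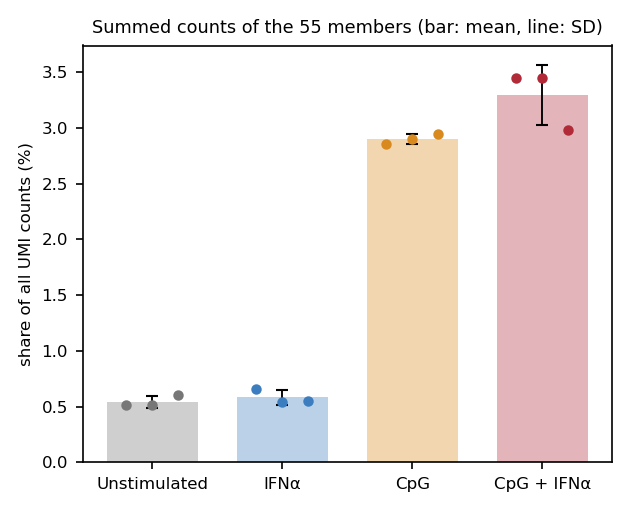
Summed UMI counts of the 55 genes as a percent of all UMI counts (y axis, from 0) in each sample (points) of the 4 groups, with group means (bars) and SD (lines), n = 3 samples a group. The CpG samples sit between 2.85% and 2.94% and the CpG plus IFNα samples between 2.98% and 3.45%, all above the samples without CpG, the highest of which is at 0.660%.

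The RNA of every one of these genes was higher with CpG. Because the list was drawn up with earlier results known, the counts below only describe it. Lists of related genes outside it had smaller medians, given further below. In CpG against unstimulated cells, 55 of 55 were higher at a Benjamini-Hochberg adjusted p under 0.1 by edgeR's quasi-likelihood test, where 36.5% of all tested genes were higher, and in 55 of 55 the lowest CpG sample was above the highest unstimulated one, where 36.1% of all genes showed such a gap. With a fold change over 2 required as well, 54 were higher, against 20.1% of all genes. The median log2 fold change was 2.30, beside -0.03 over all tested genes, and single genes (± SE here and in all fold changes) ran from 0.85 ± 0.13, adjusted p = 1.31e-06 for Gnl3l, the only one under a doubling, to 3.35 ± 0.14, adjusted p = 1.24e-19 for Rrp1b. Of the 55, 37 rose over 4-fold, as did 5.72% of all genes, and 5 over 8-fold, as did 1.24%. In CpG plus IFNα against the same unstimulated samples, 55 of 55 were also higher (37.6% of all genes, with 38.8% lower), 54 of them over 2-fold (20.3%, with 25.6% lower by that measure), with a median log2 fold change of 2.44 and a range from 0.71 for Gnl3l to 3.58 for Rrp1b. These comparisons share their control samples.

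**Figure D2:**
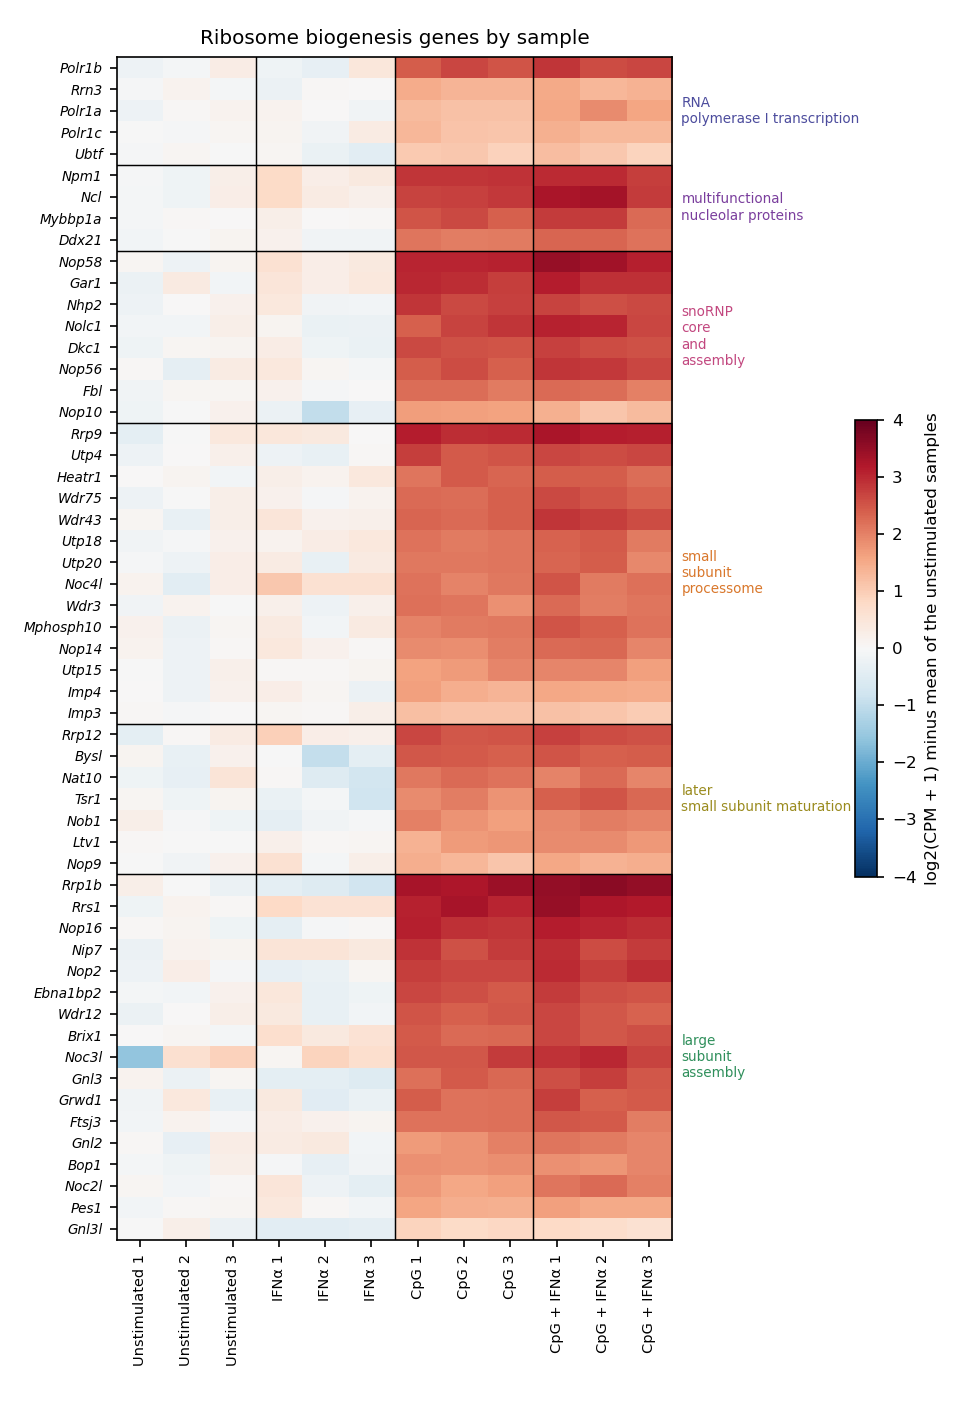
Level of each of the 55 genes (rows, grouped by role) in each of the 12 samples (columns), as log2(CPM + 1) minus the mean of the 3 unstimulated samples (colour, scale from -4 to 4). The 6 samples with CpG are red across all rows, most deeply in Rrp1b, while the 6 samples without CpG are paler throughout. Noc4l and Rrs1 are pale red and Rrp1b pale blue in the 3 IFNα samples, and Noc3l is blue in unstimulated sample 1 (4.55 CPM, against 24.6 and 30.0 CPM in the other two).

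The 5 genes of RNA polymerase I transcription rose by the smallest median of the 6 roles, a log2 fold change of 1.22 in CpG against unstimulated cells. Ubtf stood at 172, 187 and 177 CPM in the 3 unstimulated samples, 188, 148 and 133 with IFNα, 368, 381 and 337 with CpG and 425, 378 and 334 with CpG plus IFNα. Ubtf encodes UBF, which binds and opens the ribosomal DNA promoter, and its lowest CpG sample was above its highest unstimulated one, a rise of 2.02-fold (log2 fold change 1.02 ± 0.13, adjusted p = 1.24e-08, edgeR). Rrn3 stood at 81.0, 93.1 and 79.4 CPM in the 3 unstimulated samples, 71.6, 87.0 and 84.7 with IFNα, 240.1, 216 and 216 with CpG and 241, 215 and 223 with CpG plus IFNα. Its 2 stimulated groups with CpG overlapped each other, and CpG alone gave a log2 fold change of 1.41 ± 0.13, adjusted p = 9.38e-12. The catalytic subunit Polr1a (chr6:71909053-71984935, plus strand) differed in that CpG plus IFNα lay above CpG. Polr1a stood at 56.4, 67.4 and 70.6 CPM in the 3 unstimulated samples, 70.6, 65.1 and 58.0 with IFNα, 157, 147 and 147 with CpG and 189.8, 243 and 196 with CpG plus IFNα. Neither CpG group overlapped any other group, and the lowest CpG plus IFNα sample was above the highest CpG sample. The largest rise of the 5 was that of Polr1b, the second-largest subunit, from 14.6, 16 and 21.2 CPM in unstimulated cells and 15.1, 13.4 and 23.7 with IFNα to 95.8, 113 and 103 with CpG and 129, 109 and 114 with both (log2 fold change 2.58 ± 0.19, adjusted p = 1.66e-13 for CpG, edgeR). The remaining gene, Polr1c, a subunit shared with RNA polymerase III, had a log2 fold change of 1.21.

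The 4 multifunctional nucleolar proteins held the most RNA and rose by a median log2 fold change of 2.64. Ncl stood at 864, 813 and 1092 CPM in the 3 unstimulated samples, 1568, 1145 and 1053 with IFNα, 6012, 6070.2 and 6503 with CpG and 8807, 9125 and 6430.2 with CpG plus IFNα. Ncl (chr1:86344719-86359400, minus strand) encodes nucleolin, which acts in ribosomal DNA transcription and precursor processing, and all 3 CpG samples exceeded all samples without CpG (log2 fold change 2.75 ± 0.15, adjusted p = 9.00e-17, edgeR). It made up 17.2% of the summed CPM of the 55 genes without a stimulus, and IFNα alone gave 20.5%, CpG alone 21.4% and the combination 24.5%. Npm1 stood at 659, 605 and 804 CPM in the 3 unstimulated samples, 1168, 831 and 907 with IFNα, 4944, 4921 and 5054 with CpG and 5366, 5387 and 4622 with CpG plus IFNα. Npm1 (chr11:33152287-33163206, minus strand) encodes the histone and ribosome chaperone nucleophosmin and rose 7.21-fold with CpG (log2 fold change 2.85 ± 0.14, adjusted p = 1.76e-18, edgeR), with the CpG and CpG plus IFNα samples overlapping. The RNA helicase gene Ddx21 and Mybbp1a, a nucleolar Myb-binding protein, rose by log2 fold changes of 2.09 and 2.53.

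The 8 snoRNP genes rose by a median log2 fold change of 2.61 with CpG. The largest rise was that of Nop58 (chr1:59684971-59719044, plus strand), a core protein of the box C/D snoRNPs that guide 2′-O-methylation. Nop58 stood at 155, 125 and 158 CPM in the 3 unstimulated samples, 223, 173 and 189 with IFNα, 1208, 1202 and 1233 with CpG and 1639.7, 1493 and 1259.6 with CpG plus IFNα. The 4 groups did not overlap, and CpG gave a log2 fold change of 3.05 ± 0.13, adjusted p = 1.23e-19 by edgeR. Its partner Nop56 rose by 2.44 and the methyltransferase gene Fbl by 2.18. Nolc1 stood at 154, 153 and 193 CPM in the 3 unstimulated samples, 181, 139 and 142 with IFNα, 874, 1079 and 1219.6 with CpG and 1407, 1387 and 1060.2 with CpG plus IFNα. Nolc1 encodes Nopp140, a chaperone of both snoRNP classes (log2 fold change 2.66 ± 0.14, adjusted p = 5.41e-17 for CpG, edgeR), and its CpG and CpG plus IFNα samples overlapped. Among the box H/ACA proteins, the pseudouridine synthase gene Dkc1 rose by 2.57, Gar1 by 2.92 and Nhp2 by 2.74. The smallest partner, Nop10, rose least. Nop10 stood at 90.1, 102 and 115 CPM in the 3 unstimulated samples, 86.8, 50.5 and 81.7 with IFNα, 324, 322 and 312 with CpG and 276, 219 and 246 with CpG plus IFNα. For Nop10 the IFNα samples were all below the unstimulated ones and the CpG plus IFNα samples all below the CpG ones, while both CpG groups were above both groups without CpG (log2 fold change 1.64 ± 0.14, adjusted p = 5.99e-12 for CpG, edgeR).

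The 14 small subunit processome genes rose by a median log2 fold change of 2.10 with CpG, from 1.17 for Imp3 to 3.03 for Rrp9. Rrp9 stood at 22.7, 29.9 and 40.6 CPM in the 3 unstimulated samples, 41.4, 40.1 and 30.5 with IFNα, 277, 240.2 and 249 with CpG and 301, 277 and 269.8 with CpG plus IFNα. Rrp9 encodes a protein particular to the U3 snoRNP, which starts the early cleavages, and its 2 CpG groups overlapped and stood apart from both groups without CpG (log2 fold change 3.03 ± 0.16, adjusted p = 2.50e-17, edgeR). Wdr43 stood at 127, 97.3 and 141 CPM in the 3 unstimulated samples, 167, 135 and 139.7 with IFNα, 611, 579 and 633 with CpG and 876, 834 and 742 with CpG plus IFNα. Wdr43 (chr17:71615895-71659031, plus strand), of the subcomplex that joins the nascent precursor first, had no overlap between the CpG and CpG plus IFNα samples (log2 fold change 2.31 ± 0.13, adjusted p = 1.32e-16 for CpG against unstimulated, edgeR). Mphosph10 stood at 103, 77.0 and 97.1 CPM in the 3 unstimulated samples, 119, 85.1 and 117 with IFNα, 368, 391 and 394 with CpG and 532, 482 and 417 with CpG plus IFNα. Mphosph10 binds U3 with Imp3 and Imp4, and its lowest CpG plus IFNα sample was above its highest CpG sample (log2 fold change 2.05 ± 0.14, adjusted p = 1.26e-14 for CpG against unstimulated, edgeR). The unequal rise within that trio, with Imp4 at 1.48, was a difference between genes and was not tested. The remaining members of the early subcomplexes, Utp4, Utp15, Wdr75, Heatr1, Utp18 and Wdr3, and Utp20, Nop14 and Noc4l ran from 1.78 to 2.61.

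The 7 genes of later small subunit maturation rose by a median log2 fold change of 1.93 with CpG. Bysl stood at 32.8, 24.6 and 34.4 CPM in the 3 unstimulated samples, 30.3, 15.2 and 22.9 with IFNα, 174, 169 and 162 with CpG and 179, 164 and 167 with CpG plus IFNα. Bysl encodes bystin, a pre-40S factor, and its CpG and CpG plus IFNα samples overlapped (log2 fold change 2.44 ± 0.16, adjusted p = 7.88e-15 for CpG, edgeR). Ltv1 stood at 60.1, 56.7 and 56.5 CPM in the 3 unstimulated samples, 66.6, 60.2 and 61.1 with IFNα, 154, 189.6 and 201 with CpG and 219, 218 and 195 with CpG plus IFNα. Ltv1 acts in nuclear export of pre-40S particles and rose 3.14-fold with CpG (log2 fold change 1.65 ± 0.14, adjusted p = 1.84e-12, edgeR), and its IFNα samples, though none fell inside the unstimulated range, gave a log2 fold change of 0.11. Rrp12 stood at 10.9, 15 and 18.5 CPM in the 3 unstimulated samples, 29.3, 17.6 and 16.8 with IFNα, 98.2, 86.2 and 87.9 with CpG and 103, 94.2 and 88.9 with CpG plus IFNα. Rrp12, another export factor, had the largest rise of the 7 (log2 fold change 2.61 ± 0.20, adjusted p = 5.18e-13, edgeR), from the lowest unstimulated level of the genes given by sample. Tsr1 stood at 25.5, 21.4 and 26.5 CPM in the 3 unstimulated samples, 20.2, 23.1 and 13.7 with IFNα, 92.1, 103 and 87.9 with CpG and 131, 144 and 125 with CpG plus IFNα. Tsr1 (chr11:74898071-74909342, plus strand), a GTPase-like protein of the pre-40S particle, rose with CpG (log2 fold change 1.93 ± 0.18, adjusted p = 1.60e-11, edgeR) and was higher again, without overlap, with CpG plus IFNα. The nuclease gene Nob1, which makes the 3′ end of 18S ribosomal RNA, the cytidine acetyltransferase gene Nat10 and Nop9 rose by log2 fold changes of 1.83, 2.15 and 1.30.

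The 17 large subunit genes rose by a median log2 fold change of 2.32 with CpG and held both ends of the range over the 55. Rrp1b stood at 39.1, 33.2 and 28.2 CPM in the 3 unstimulated samples, 25.2, 23.1 and 19.1 with IFNα, 334, 323 and 367 with CpG and 394, 416 and 391 with CpG plus IFNα. Rrp1b (chr17:32036100-32062865, plus strand), a nucleolar protein of pre-60S particles, rose 10.2-fold with CpG, and its 4 groups did not overlap, with the IFNα samples the lowest. Gnl3 stood at 145, 113 and 141 CPM in the 3 unstimulated samples, 101, 101 and 92.3 with IFNα, 616, 724 and 648 with CpG and 799.7, 899 and 740.0 with CpG plus IFNα. Gnl3 (chr14:31012433-31019152, minus strand) encodes nucleostemin, a nucleolar GTPase, and showed the same order of the 4 groups without overlap (log2 fold change 2.31 ± 0.12, adjusted p = 4.01e-17 for CpG, edgeR). Ebna1bp2 stood at 78.3, 77.0 and 92.7 CPM in the 3 unstimulated samples, 113, 67.5 and 73.3 with IFNα, 529, 502 and 452 with CpG and 574, 496 and 479 with CpG plus IFNα. Ebna1bp2, a pre-60S scaffold protein, rose 5.95-fold with CpG (log2 fold change 2.57 ± 0.15, adjusted p = 1.87e-16, edgeR), and IFNα with CpG gave values that overlapped those of CpG. Noc2l stood at 58.2, 50.3 and 56.5 CPM in the 3 unstimulated samples, 76.7, 47.4 and 41.2 with IFNα, 184, 162 and 172 with CpG and 245, 267 and 224 with CpG plus IFNα. Noc2l, a pre-60S factor also known as an inhibitor of histone acetylation, had its lowest CpG plus IFNα sample above its highest CpG sample (log2 fold change 1.65 ± 0.16, adjusted p = 5.22e-11 for CpG against unstimulated, edgeR). The PeBoW proteins Pes1, Bop1 and Wdr12, which act as one complex, rose by log2 fold changes of 1.5, 1.83 and 2.47. Rrs1, which brings the 5S particle into the pre-60S, and the assembly factor Nop16 rose by 3.17 and 3.0. Gnl3l, a close relative of Gnl3, stood at 69.2, 81.3 and 59.1 CPM unstimulated and 129.5, 119.8 and 125 with CpG.

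**Figure D3:**
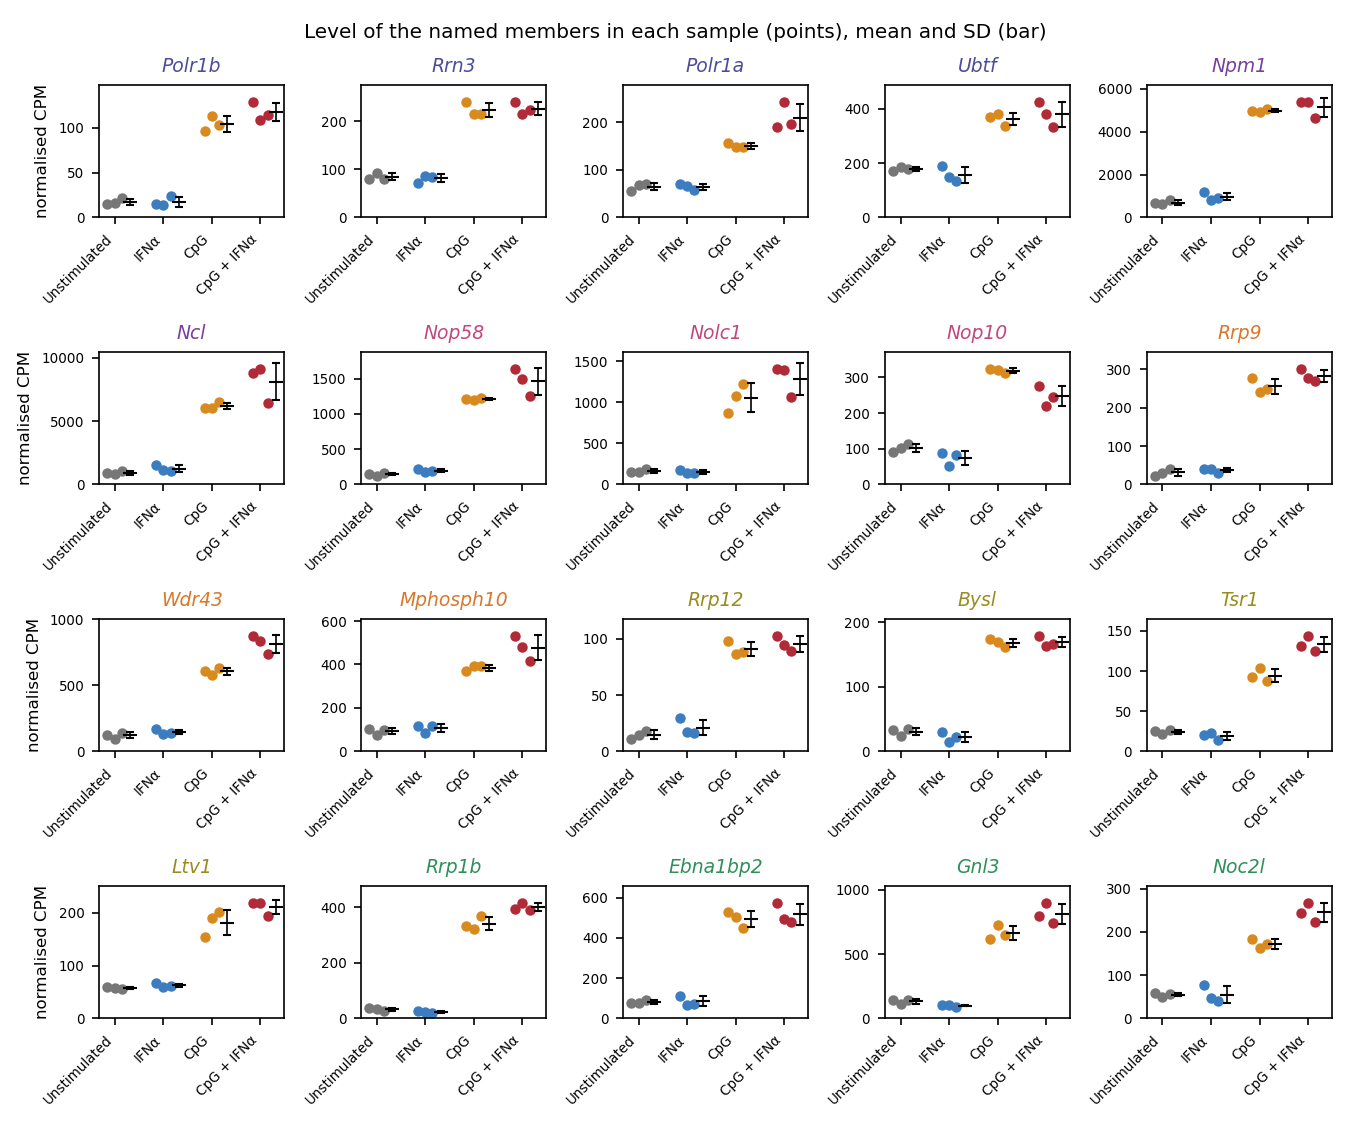
Normalised CPM (y axes, each from 0) in every sample (points) of the 4 groups for the 20 genes given sample by sample, 1 panel a gene, with each group's mean and SD (n = 3) beside its points. In all 20 panels both CpG groups lie above both groups without CpG, and 8 panels (Polr1a, Nop58, Wdr43, Mphosph10, Tsr1, Rrp1b, Gnl3 and Noc2l) have every CpG plus IFNα point above every CpG point, while Nop10 has them all below. Some panels were chosen for their change between these 2 groups. Over all 55 genes 11 lay all above and 1 all below, beside 11.5% and 16.7% of all tested genes.

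With IFNα alone the share of these genes that changed was near that of all genes. Against unstimulated cells, 7 were higher and 4 lower by edgeR at an adjusted p under 0.1, beside 12.4% and 11.9% of all tested genes, and 44 were not called. None passed a fold change of 2 in either direction, beside 4.56% and 4.07% of all genes. In 9 genes the IFNα samples were all above the unstimulated ones and in 4 all below, beside 16.4% and 16% of all genes. At an unadjusted p under 0.05 the counts were 8 and 6, and DESeq2 gave 7 and 3. The 7 higher genes were Npm1 (log2 fold change 0.49 ± 0.13, adjusted p = 0.0065), Rrs1 (log2 fold change 0.66 ± 0.18, adjusted p = 0.0073), Brix1 (log2 fold change 0.55 ± 0.16, adjusted p = 0.011), Noc4l (0.73), Nip7 (0.49), Ncl (0.44) and Nop58 (0.40). For Rrs1 the values were 32.8, 40.6 and 37.9 CPM unstimulated and 65.6, 55.9 and 55.7 with IFNα. Brix1, whose protein acts in large subunit assembly, went from 48.2, 50.3 and 45 CPM to 76.7, 62.6 and 72.5. The lowest IFNα sample of both genes was above the highest unstimulated one. The 4 lower genes were Rrp1b (log2 fold change -0.58 ± 0.21, adjusted p = 0.044), Nop10 (log2 fold change -0.52 ± 0.17, adjusted p = 0.025), Gnl3 (log2 fold change -0.45 ± 0.14, adjusted p = 0.021) and Gnl3l (log2 fold change -0.41 ± 0.15, adjusted p = 0.058). The calls depended on single samples: without IFNα sample 1, which had the highest summed share of its group, 4 genes were higher, without unstimulated sample 1, 1 was lower, and without IFNα sample 2 or 3, 2 were lower. Over all genes, the share of calls that were higher went from 51.1% to 38.4% when libraries were scaled by total count alone. With that scaling the median of the 55 on the log2 scale was -0.02, in place of 0.06.

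Adding IFNα to CpG left most of these genes near their CpG level. In CpG plus IFNα against CpG, 8 were higher and 1 lower by edgeR at an adjusted p under 0.1, beside 6.54% and 8.83% of all tested genes, 46 were not called, and none passed a fold change of 2 in either direction, beside 2.95% and 2.01%. The estimates of 50 of the 55 were above 0, as were 4226 of the 9431 of all genes, with a median of 0.15 beside -0.04. Polr1a (log2 fold change 0.48 ± 0.11, adjusted p = 0.003) and Wdr43 (log2 fold change 0.43 ± 0.11, adjusted p = 0.0081) were higher, as were Noc2l (log2 fold change 0.51 ± 0.12, adjusted p = 0.0044) and Tsr1 (log2 fold change 0.51 ± 0.12, adjusted p = 0.0042). The other 4 were closer to the threshold: Ncl (log2 fold change 0.39 ± 0.14, adjusted p = 0.071), Gnl3 (log2 fold change 0.30 ± 0.11, adjusted p = 0.071), Mphosph10 (log2 fold change 0.31 ± 0.12, adjusted p = 0.083) and Nop56 (log2 fold change 0.32 ± 0.12, adjusted p = 0.096), of which Ncl overlapped between the groups. Nop10 was the lower one (log2 fold change -0.37 ± 0.12, adjusted p = 0.047). In 11 genes the CpG plus IFNα samples were all above the CpG samples, beside 11.5% of all genes, and in 1 all below, beside 16.7%. At an unadjusted p under 0.05 the counts were 13 and 1, and DESeq2 called 6 higher and 0 lower (14 and 1 at its unadjusted p under 0.05). Single libraries changed the count of higher genes: it was 4 without CpG sample 1, CpG plus IFNα sample 1 or CpG plus IFNα sample 2, 5 without CpG sample 3 and 11 without CpG plus IFNα sample 3. The lower call of Nop10 was lost without CpG sample 1 or 2, CpG plus IFNα sample 2 or unstimulated sample 3. With every library drawn down to the smallest total, 3 were higher and 0 lower, and with only the 2 groups fitted 15 were higher. Over all genes, the share of calls that were higher was 42.6%, and it was 40.8% with libraries scaled by total count alone, 46.9% with RLE factors, 50.9% without rRNA and mitochondrial genes and 57.7% without the filter on low counts.

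**Figure D4:**
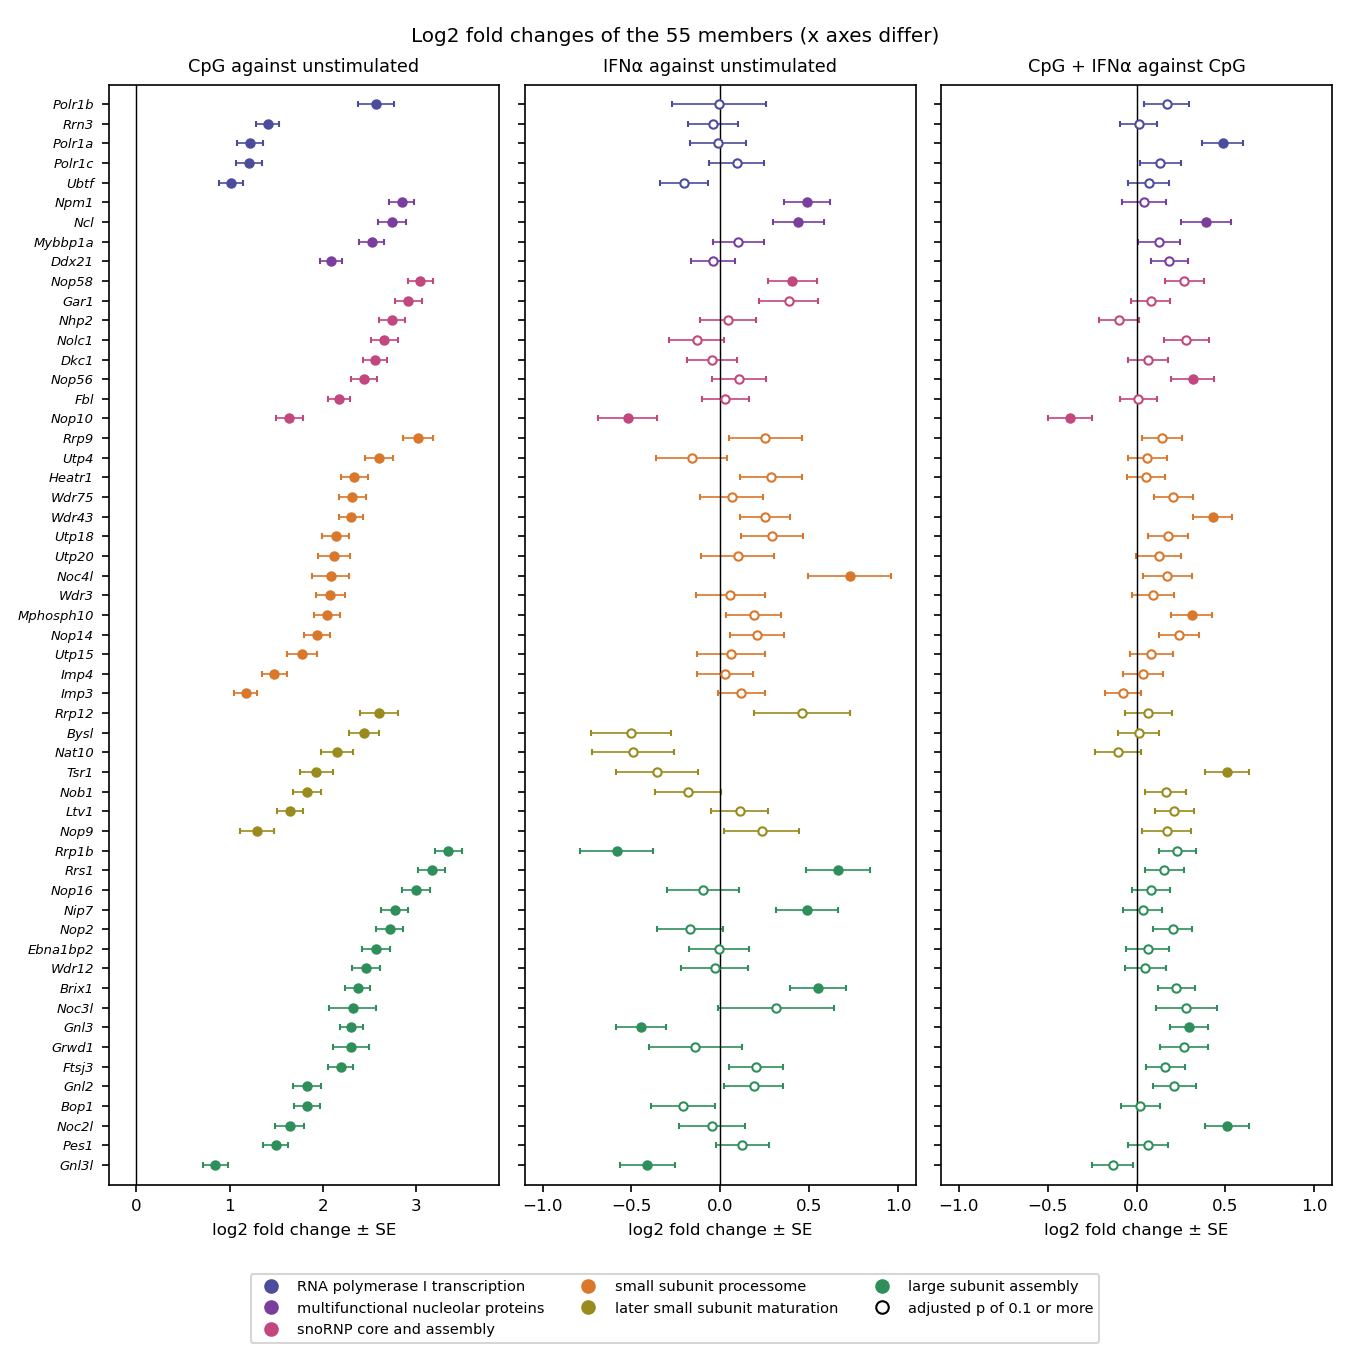
Log2 fold change with its SE (x axes) of each of the 55 genes (y axis, coloured by role) in CpG against unstimulated, IFNα against unstimulated and CpG plus IFNα against CpG, with filled points for an adjusted p under 0.1 by edgeR and open points for the rest. CpG places every gene to the right of 0, from 0.85 to 3.35, and IFNα alone and IFNα added to CpG place the genes within 0.73 of 0 on either side.

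Whether IFNα acted differently in the presence of CpG was tested as the interaction, the log2 fold change of CpG plus IFNα against CpG minus that of IFNα against unstimulated cells. It was above 0 for 3 genes and below 0 for 0 by edgeR at an adjusted p under 0.1, beside 5.84% and 7.58% of all tested genes, and for none by more than a factor of 2, beside 3.09% of all genes above 0. At an unadjusted p under 0.05 the counts were 6 and 4, and DESeq2 also gave 3 and 0. The 3 were Gnl3 (interaction 0.74 ± 0.18, adjusted p = 0.0051), Rrp1b (interaction 0.81 ± 0.23, adjusted p = 0.021) and Tsr1 (interaction 0.86 ± 0.26, adjusted p = 0.034). Gnl3 and Rrp1b were lower with IFNα alone, and Tsr1 had a log2 fold change of -0.36 there that was not called (adjusted p = 0.32). The interaction was above 0 for 5 genes without IFNα sample 1, with libraries scaled by total count alone, and without rRNA and mitochondrial genes. Over all genes, the share of calls above 0 went from 43.5% to 55.4% with libraries scaled by total count alone.

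CpG plus IFNα against IFNα compares 2 groups that were both held in stimulated culture for 12 h. Again 55 of 55 were higher by edgeR, beside 36.1% of all tested genes (39.8% were lower), and 55 of 55 did not overlap, beside 35%. A fold change over 2 was passed by 54, beside 18.7%, with Imp3 below it (log2 fold change 0.98 ± 0.11, adjusted p = 3.71e-09). The median log2 fold change was 2.29, and the largest was that of Rrp1b (log2 fold change 4.16 ± 0.15, adjusted p = 6.48e-22, edgeR), whose IFNα samples were the lowest of all 4 groups. Across the comparisons, 38 genes were higher with CpG and with CpG plus IFNα and not called either with IFNα alone or between the 2 CpG groups, a pattern shown by 24.5% of all tested genes.

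Further genes of the same machinery were read from lists of other members of each class. In CpG against unstimulated cells, where 36.5% of all tested genes were higher and 38.4% lower, 38 of 40 other small subunit genes were higher and 0 lower (median log2 fold change 1.68), and 40 of 46 other large subunit genes were higher and 2 lower (1.63). The largest rises were those of Pno1, a pre-40S factor (3.21), and Rpf2, which works with Rrs1 (3.10). All 10 other snoRNP assembly genes were higher (median 2.13, largest Naf1, a box H/ACA assembly factor, 2.86), as were 13 of 13 genes of the RNA exosome, the 3′ to 5′ nuclease that trims precursors (1.39, largest the nuclease Dis3, 2.12). Of 10 other RNA polymerase I genes, 7 were higher and 1 lower (0.79). Their largest change was that of Cd3eap, an RNA polymerase I subunit, from 29.1 ± 4.47 CPM to 194 ± 28.7 CPM (SD, n = 3).

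Ribosomal proteins, which these factors assemble, had smaller fold changes. Of 78 cytosolic ribosomal protein genes tested, 58 were higher and 2 lower with CpG, with a median log2 fold change of 0.55, beside 2.30 for the 55 biogenesis genes. These genes have many near-identical processed copies in the genome, so their counts are uncertain. Mitochondrial ribosomal protein genes lay between, with 72 of 75 higher, 0 lower and a median of 1.39. In CpG plus IFNα against CpG, 0 cytosolic ribosomal protein genes were higher and 5 lower, with estimates above 0 for 13 of 78 and a median of -0.10, beside 0.15 for the biogenesis genes and -0.04 over all tested genes. The mitochondrial ones had 1 higher and 5 lower (median -0.07), the other small subunit genes 0 and 0, and the other large subunit genes 4 and 0. Of all tested genes 6.54% were higher and 8.83% lower there. All CpG plus IFNα samples lay below all CpG samples in 21 of 78 cytosolic and 17 of 75 mitochondrial ribosomal protein genes, beside 16.7% of all genes. The difference between the lists was not tested.

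**Figure D5:**
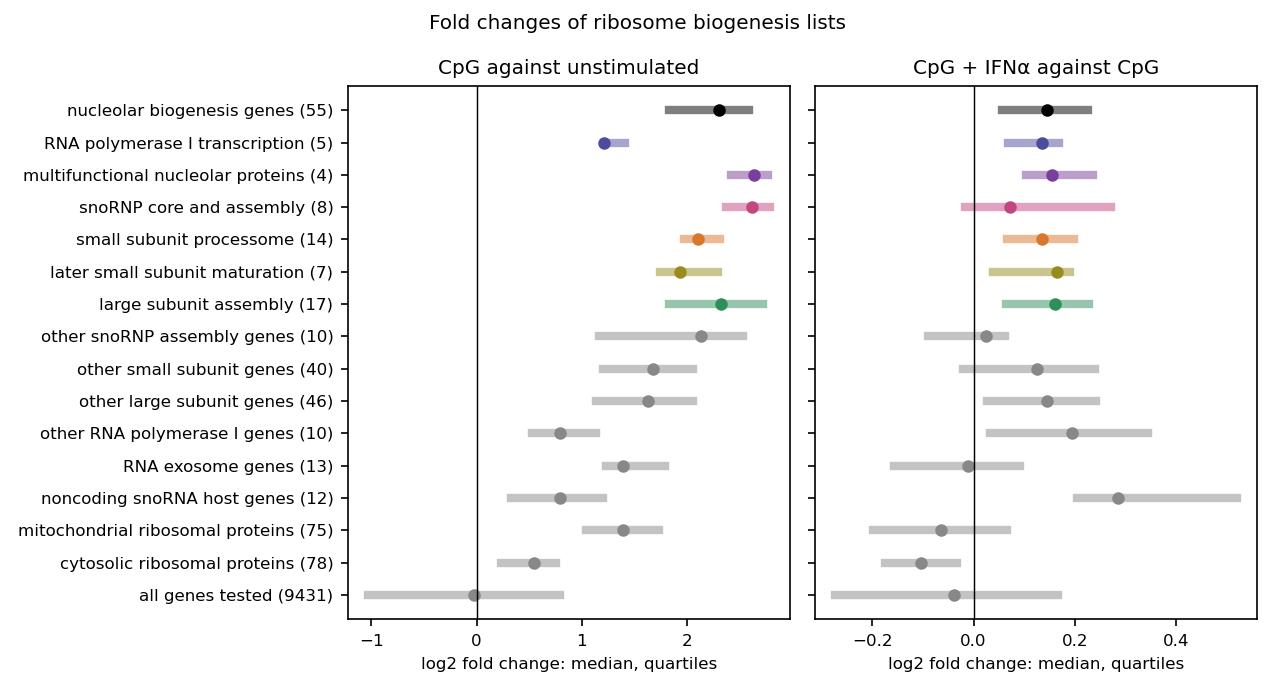
Median (points) and quartiles (bars) of the log2 fold changes (x axes) over the 55 biogenesis genes, their 6 roles, the lists of related genes and all tested genes (y axis, with the number of genes tested in brackets), in CpG against unstimulated (left) and CpG plus IFNα against CpG (right). With CpG the biogenesis genes centre at 2.30 and the cytosolic ribosomal proteins at 0.55, and with IFNα added to CpG the medians are 0.15 and -0.10.

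Some of these genes also carry small nucleolar RNAs in their introns. By GENCODE M21 (GRCm38), 6 of the 55 (10.9%) held 11 such genes, against 158 of 8707 protein-coding tested genes (1.81%). Counted were same-strand small nucleolar RNA genes that overlapped no annotated exon of any transcript of the host. Those lying in an exon of some transcript, such as one that keeps an intron, were left out, so the counts and lists may be incomplete. By this rule, Ncl held Snord82, Nop56 held Snord110, Dkc1 held Gm25520, Nop58 held Snord70, Snord11 and Gm26287, Wdr43 held Snord92, Snord53 and Gm22858, and Tsr1 held Snord91a and Gm22771. Of the 11, 9 were rows of the count table and together had 142 counts over the 12 samples, too few for a comparison in libraries primed on poly(A) tails. Exons of 22 of the 55 genes overlap those of a gene on the opposite strand, among them Polr1a, Tsr1, Wdr43, Noc2l, Gnl3, Rrp1b and Nop56. The strand setting of the counting is not stated in the sources used here, so reads of these genes and their antisense partners may not have been told apart.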

How the data were processed

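BRB-seq libraries of 12 samples, 3 in each of 4 groups, were analysed. The authors' deposited values were raw UMI counts per gene. Per the submitters' processing notes they used UMI-tools 1.1.2, Trim Galore 0.6.7, HISAT2 2.2.1 to GRCm38 and featureCounts 2.0.1, and the study's methods state unique UMIs and a 3′ extension of Tlr9. The annotation release was not given in the sources used here. Of 22561 genes, 9431 passed edgeR's filterByExpr. One quasi-likelihood fit of the 12 samples (edgeR 4.0.16, R 4.3.3, TMM factors, 8 residual degrees of freedom) gave log2 fold changes and F statistics. Each SE is the size of the log2 fold change divided by the square root of its F statistic. The test also draws on the spread of other genes, so its p-values rest on more than the 8 residual degrees of freedom. A gene was called at a Benjamini-Hochberg adjusted p under 0.1 over all tested genes. Printed CPM are TMM-normalised and shares are of all counts. The study used DESeq2; DESeq2 1.42.0 is an alternative here. A count of 0 allows up to 3 counts, and counting error is the only error this covers. No replicate pair agreed within sampling noise (chi-square per degree of freedom 2.02 to 7.00).

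Members and lists were chosen with earlier results of these data known. Sample values are given, per role, for the 2 genes with the highest mean CPM and for the called gene with the largest change in CpG against unstimulated and in CpG plus IFNα against CpG. Of each related list, the called gene with the largest change in CpG against unstimulated is named. Rrs1, Brix1 and Gnl3l were given by sample after their values were seen. Gene positions are from GENCODE M21, which holds all 22561 identifiers. The fitting code was tested on simulated data. Alternatives were RLE factors, library size only, no filter, DESeq2, only the groups compared, drawn-down counts, a replicate block, no rRNA or mitochondrial genes, other thresholds and each sample left out. One B cell marker is not reported here and was left out of the marker sums.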

Additional observations from a re-analysis of the deposited data

Results flagged for a closer look

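For 3 of the 55 genes IFNα gave another change in the presence of CpG than in its absence, by edgeR's test of the interaction at an adjusted p under 0.1, a share near that of all tested genes (5.84% above 0). The interaction was 0.74 ± 0.18 (SE) on the log2 scale for Gnl3 (adjusted p = 0.0051), 0.81 ± 0.23 for Rrp1b (adjusted p = 0.021) and 0.86 ± 0.26 for Tsr1 (adjusted p = 0.034). All 3 were higher than their unstimulated level with CpG. None of the 3 passed a fold change of 2. At the adjusted p under 0.1 alone, over 19 alternatives in scaling, filter, tool, depth, block and samples, Gnl3 kept its call in 19, Rrp1b in 18 and Tsr1 in 17. Rrp1b lost it without unstimulated sample 1 (adjusted p = 0.12), and Tsr1 with counts drawn down and without IFNα sample 3, with an adjusted p of at most 0.40.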

How the results depend on the processing

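All 55 genes stayed higher in CpG against unstimulated, CpG plus IFNα against unstimulated and CpG plus IFNα against IFNα under every alternative, with 54 when a fold change over 2 was required. The smaller effects of IFNα depended on the processing. For IFNα against unstimulated, the 7 higher genes were 4 to 8 with single samples left out, and the 4 lower ones 1 to 5, and 2 without a count filter or with counts drawn down. For CpG plus IFNα against CpG, the 8 higher genes were 15 with only those groups fitted, 3 with counts drawn down, 4 at an adjusted p under 0.05 and 4 to 11 with single samples left out, and the 1 lower gene was 0 to 1 with samples left out and 0 without a filter, by DESeq2 or with counts drawn down. The interaction was above 0 for 5 genes in place of 3 with library size only or without rRNA and mitochondrial genes, and for 2 to 5 with samples left out, and below 0 for 0 to 1. Requiring a fold over 2 gave 0 in all of these. The median log2 fold change with CpG was 2.18 with counts drawn down (2.17 to 2.33 with samples left out), that of CpG plus IFNα against unstimulated 2.56 without a filter and 2.33 drawn down (2.40 to 2.5), and against IFNα 2.40 without a filter (2.24 to 2.44). Without a filter the median of all genes shifted by 0.12 in both. Drawing down removes counts and leaves fewer genes, and the cause of the other changes was not tested. Same-numbered samples correlated by -0.07 to 0.20 over 18 pairs and differently numbered ones by -0.20 to 0.06 over 36, and the summed erythroid markers were highest in sample 1, next in sample 2 and lowest in sample 3 of all 4 groups. Not every same-numbered pair was over 0.1 and no label ties the numbers to a mouse or day, so the numbers were not taken to pair the samples. With the replicate number as a block, the interaction was above 0 for 5 genes and below 0 for 1, CpG plus IFNα against CpG gave 9 higher and 1 lower, IFNα against unstimulated 8 and 4, and 10 of 12 samples correlated best with their own number. Depth limits the low genes most: Noc3l had 5 counts in unstimulated sample 1.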

Other observations

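Noncoding genes that host small nucleolar RNAs formed a list of 12 tested genes. In CpG against unstimulated cells 8 were higher and 1 lower by edgeR (median log2 fold change 0.80), beside 36.5% and 38.4% of all tested genes, with the largest change in Snhg15, from 26.9 ± 10.6 CPM (SD, n = 3) to 102 ± 9.38 CPM. In CpG plus IFNα against CpG 5 were higher and 0 lower (median 0.29, all 12 estimates above 0), beside 6.54% and 8.83% of all tested genes, with Snhg15 at 149 ± 16 CPM, and the interaction was above 0 for 5 and below 0 for 0, beside 5.84% and 7.58%. In IFNα against unstimulated cells, which the interaction subtracts, 2 were higher and 3 lower (median -0.08), beside 12.4% and 11.9% of all tested genes. The difference from the 55 biogenesis genes was not tested.

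The 5 marginal zone markers summed to 454 to 540.2 CPM in unstimulated samples, 548 to 594 with IFNα, 522 to 566 with CpG and 273 to 287 with both. Mzb1, also a gene of antibody-secreting cells, carried much of that sum (232 to 321 CPM unstimulated, 429.9 to 506 with IFNα, 479 to 509.7 with CpG and 244 to 251 with both), while Dtx1 went from 161 to 179.7 CPM unstimulated to 74.7 to 90.05 with IFNα and 36.8 to 43.4 with CpG, and Cd1d1 from 27.8 to 42.4 CPM to 7.06 to 24.4 and 0 to 0.71. Plasma cell markers summed to 119 to 145 CPM, 97.9 to 114, 54.2 to 80.4 and 45.9 to 73.5 in the same order. Xbp1 carried most of that sum, at 94.1 to 113 CPM unstimulated and 69.9 to 78.6 with IFNα. With CpG it stood at 49.2 to 76.7 CPM, and with both at 40.4 to 68.9. Sdc1 went from 12.8 to 23.8 CPM unstimulated to 20.7 to 31.3 with IFNα and 1.23 to 2.14 with CpG. Prdm1 was at most 6.18 CPM and Jchain at most 10.7 CPM in any sample. Over the same 4 groups, plasmacytoid dendritic cell markers summed to 66.4 to 81.2 CPM, 905 to 1247, 96.2 to 147 and 1023 to 1171. That change was in Bst2, a gene known to be induced by interferon (64.6 to 76.8 CPM unstimulated, 898 to 1242 with IFNα), while Siglech was at 0 in all 12 samples and Ccr9 stood at 1.82 to 6.42 CPM unstimulated and 3.82 to 6.69 with IFNα.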
